A study of Mus musculus with 8 samples.

Results

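A list of 10 genes that report on ERK signalling was followed in mouse ID8 IP2 ovarian cells with and without an active Notch3. They were taken by symbol as a fixed list: the Sprouty genes Spry1, Spry2 and Spry4, their relatives Spred1 and Spred2, the dual-specificity phosphatases Dusp4, Dusp5 and Dusp6, and the ETS factors Etv4 and Etv5. These are 10 of the 23284 gene symbols with a deposited count. All 10 were among the 12430 genes with enough counts to be tested, and each had at least 10 counts in each of the 8 libraries.

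Polyadenylated RNA of 8 lines was sequenced, 4 Control and 4 Notch3IC, which form 4 matched sets numbered Set 1 to Set 4. ID8 IP2 is a mouse tumor line of ovarian surface epithelial origin. Notch3IC lines were infected with a pCCL lentivirus that carries an HA-tagged Notch3 intracellular domain followed by IRES-GFP, and Control lines with pCCL lacking the insert. Both groups also carry the FUW-luciferase-mCherry vector and grew in the same medium. Each set is a separate pair of infected lines from a single parental line, so the p-values measure the spread between infections of that line and not between tumors. Unless the set is named as a block, the fit has condition as its only term and does not use the pairing. Its error then also holds differences that both lines of a set share. The study's later tests pointed to mycoplasma in every ID8 IP2 line, which is a condition that both groups share. The libraries held 19013578 to 28208072 counts in Control (median 24255880) and 15524262 to 27107061 in Notch3IC, the lowest being the Notch3IC library of Set 2.

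Growth factor receptors activate ERK through RAS, RAF and MEK, and active ERK induces genes that switch the same pathway off again. Sprouty and Spred proteins hold back the step from receptor to RAS and RAF, with Spred proteins acting with neurofibromin on RAS. Among the phosphatases, Dusp4 and Dusp5 act on nuclear MAP kinases and Dusp6 on ERK in the cytoplasm. Etv4 and Etv5 are transcription factors that FGF and ERK signalling induces. Transcripts of these genes are therefore often used as a readout of the pathway. ERK phosphorylation itself was not measured in these libraries.

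The labels were checked first with Notch3 and 3 genes that Notch induces. In the order of Sets 1 to 4, Notch3 had 38.7, 40.6, 70.8 and 42.0 normalized counts in Control and 4322, 467, 9220 and 5842 in Notch3IC. To normalize, each count was set against its library size after TMM scaling and brought to the mean of the 8 scaled sizes. Each Notch3IC library lay above each Control library, with the smallest difference in Set 2. The log2 fold change of Notch3 was 6.69 (standard error, SE, 0.74, adjusted p = 0.0169), that of Hey1 was 7.35 and that of Nrarp 7.34. Heyl had at most 2 counts in a Control library, and its Notch3IC libraries held 1927, 147, 7460 and 4628 counts in set order. Reads of the insert and of the endogenous Notch3 gene are not separated in these counts, and 79.4% of the exon bases of Nrarp lie over Gm38287 on the opposite strand in GRCm38.

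Set 1 stood apart from the other sets. Between the Control library of Set 1 and the other Control libraries the chi-square per gene was 112 to 122, against 13.4 to 39.9 among those other 3. A value near 1 would mean sampling noise alone. In Notch3IC it was 115 to 130 for pairs with Set 1, 69.6 and 87.1 for Set 2 with the other 2 sets, and 18.4 between Sets 3 and 4. No pair of libraries was a repeat of one library. Values without Set 1 are given below for the genes that move with it.

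Markers of the labelled tissue were present but also differed between the groups. Of 11 listed markers of ovarian surface epithelium, 10 were tested, and 2 had a positive and 8 a negative log2 fold change. Past both thresholds 2 fell, Msln (-2.60, SE 0.59, adjusted p = 0.0625) and Upk1b (-2.19, SE 0.54, adjusted p = 0.0762), where 0.74% of all genes tested did. With the set as a block in the fit, 4 of the 10 fell past both thresholds (2.53% of all genes). By the adjusted p alone, 8 were lower with the block (12.1% of all genes). Msln encodes mesothelin and Upk1b a uroplakin, both surface proteins of mesothelial cells. The 11 markers summed to 1136, 2020, 3098 and 2961 CPM (counts scaled to equal library sizes) in Control from Set 1 to Set 4 and to 387, 1309, 1239 and 935 in Notch3IC, lower in each set. Upk3b was the most abundant of them, and Krt7 reached at most 46 counts. Of 6 fibroblast markers, 3 were tested and Pdpn, the podoplanin gene, fell (-1.20, SE 0.29, adjusted p = 0.0629). The 2 most abundant, Pdgfra and Dcn, had log2 fold changes of 0.49 (adjusted p = 0.592) and -0.47 (adjusted p = 0.809), and the 6 summed to 230 to 791 CPM in Control and 186 to 627 in Notch3IC. Endothelial markers summed to at most 2.20 CPM in a library, led by Pecam1 and then Kdr. Leukocyte markers summed to at most 5.23, led by Cd68, with Emr1 (now Adgre1) and Cd3e at 0 counts in every library. The part of the shift in epithelial markers in the results below was not tested.

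Against this background, none of the 10 genes passed both thresholds of the study, an adjusted p under 0.1 with a log2 fold change of 1 or more either way. Of all genes tested, 423 (3.4%) were higher and 92 (0.74%) lower by that rule in edgeR's quasi-likelihood test, so among 10 genes a count of 0 is near the background. At an unadjusted p under 0.05, 1 gene was higher and 1 lower, Spry1 and Spred2, where the shares of all genes were 11.8% and 6.65%. DESeq2 gave the same counts, 0 by both thresholds and 1 and 1 unadjusted. The number higher at an unadjusted p under 0.05 was 5 without the Notch3IC library of Set 2, 4 without Set 2, 2 without the Control library of Set 4 and 3 with the set as a block, where 1826, 1791, 1110 and 2340 of all genes tested were, against 1462 with all libraries and no block. With the adjusted p alone, Spry1 passed as higher (5% of all genes) and Spred2 as lower (1.69%). In DESeq2 the adjusted p was 0.0161 for Spry1 and 0.00519 for Spred2. By both thresholds DESeq2 also called more of all genes, 707 higher and 192 lower. With the set as a block in the fit, 0 of the 10 passed both thresholds, where 5.19% of all genes were higher and 2.53% lower. The median log2 fold change of the 10 genes was 0.25, with 8 positive and 2 negative, beside -0.01 over all genes tested. Under DESeq2, RLE scaling or library totals the split was 7 and 3, since Dusp6 changed sign. Without Set 1 the split was 6 and 4 and the median 0.15, and without the Notch3IC library of Set 2 it was 9 and 1 with a median of 0.39.

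**Figure D1:**
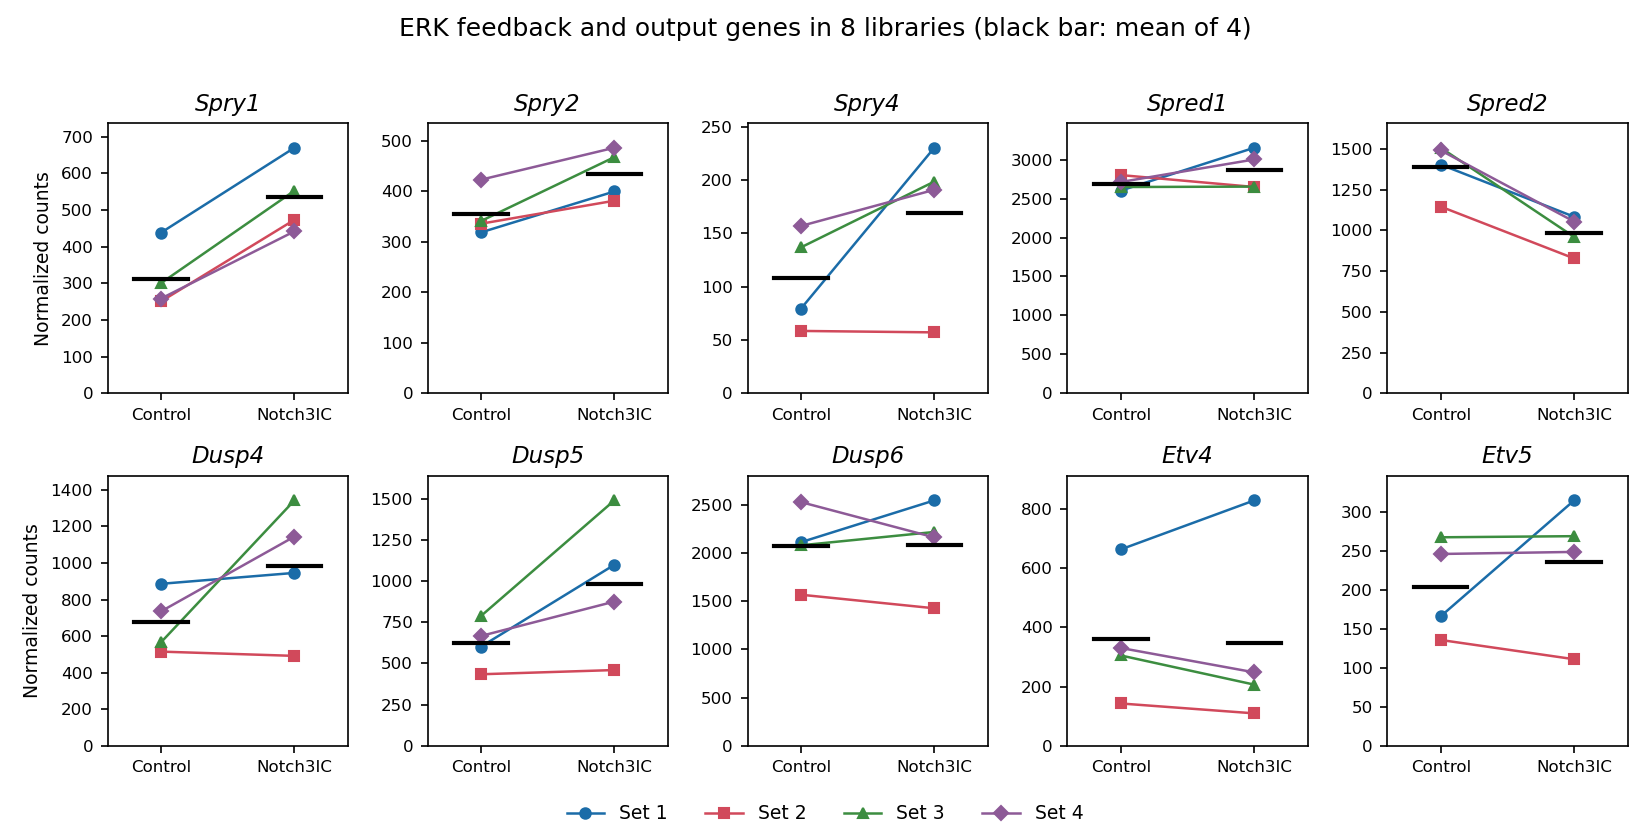
Normalized counts (vertical axes, each from 0) of the 10 genes in the Control and the Notch3IC library of each set, with points of a set joined by a line and black bars at the mean of 4 libraries. Spry1 is higher and Spred2 lower in Notch3IC in each set with no overlap between the groups, while Etv4 of Set 1 lies above the other sets in both groups.

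Among the Sprouty genes, only Spry1 had libraries that did not overlap between the groups. Spry1 lies on chromosome 3 from 37639947 to 37644598 on the plus strand of GRCm38, and Spred2, which went the other way, on chromosome 11 from 19924375 to 20024026 on the plus strand. The 250 bases upstream of the RefSeq start of each (GRCm38.p6, plus strand, chr3:37639697-37639946 and chr11:19924192-19924441) are shown because these are the 2 genes whose libraries did not overlap between groups. Capitals mark TGGGAA, the core of the site bound by RBPJ, through which Notch acts.
Spry1: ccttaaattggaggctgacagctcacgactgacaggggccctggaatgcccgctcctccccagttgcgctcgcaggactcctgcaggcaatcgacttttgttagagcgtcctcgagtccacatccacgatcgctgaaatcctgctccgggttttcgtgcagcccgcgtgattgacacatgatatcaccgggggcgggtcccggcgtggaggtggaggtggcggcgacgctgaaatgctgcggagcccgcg
Spred2: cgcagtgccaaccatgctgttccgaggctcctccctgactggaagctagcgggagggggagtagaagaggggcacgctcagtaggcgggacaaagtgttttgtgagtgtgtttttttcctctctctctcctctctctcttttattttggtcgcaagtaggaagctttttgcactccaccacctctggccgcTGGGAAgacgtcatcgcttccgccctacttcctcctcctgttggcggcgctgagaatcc

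The Spred2 sequence holds TGGGAA 59 bases before the RefSeq start, which lies inside the gene as GENCODE places it, and the Spry1 sequence holds none. Windows from 250 bases before to 50 after a start were taken from the RefSeq promoter table for 7 of the 10 genes, 8 windows in all. Dusp4 and Spry4, on chromosomes 8 and 18, were left out of the scan whether or not that table held them. No window of Etv4 was scanned either. Motifs were searched on both strands in these 8 windows and in all 32851 windows of that table, with no chromosome left out of the latter. TGGGAA was in 2 of the 8 windows, of Spred2 and of 1 of the 2 windows of Etv5, and in 25.6% of all windows. CCGGAA, a core that ETS factors bind, was in 1 of 8, that of Spry2, and in 14.9% of all. The longer GTGGGAA and CCGGAAGT, which contain these cores, the E-box CACGTG, the AP-1 site TGANTCA and the CRE TGACGTCA were in none of the 8 and in 6.38%, 3.89%, 7.15%, 7.81% and 1.79% of all windows. A match describes the letters only, and binding was not measured.

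From Set 1 to Set 4, Spry1 had 438, 251, 301 and 258 normalized counts in Control, and 670, 473, 553 and 442 in Notch3IC. The lowest Notch3IC library, Set 4, lay just above the highest Control library, Set 1, so the groups did not overlap, as in 7.08% of all genes tested with Notch3IC higher. The means were 312 ± 87.0 and 534 ± 102 (SD, n = 4 libraries each). This gave a log2 fold change of 0.78 (SE 0.21, 95% interval 0.29 to 1.26, adjusted p = 0.0933), a 1.71-fold difference under the fold-change limit. Within the sets the log2 ratios were 0.61, 0.92, 0.88 and 0.77, each with a counting interval above 0. With the set as a block, the adjusted p was 0.0161. Leaving out Control of Set 1 or Notch3IC of Set 2 kept the adjusted p under 0.1, and leaving out any 1 of the other 6 libraries raised it to between 0.156 and 0.258. In GRCm38, 24.4% of the exon bases of Spry1 lie over Gm42922 on the opposite strand, and whether the libraries kept the strand is not given in the sources used here.

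Spry2 was 318, 335, 341 and 423 normalized counts in Control and 399, 381, 467 and 486 in Notch3IC in Sets 1 to 4. Notch3IC exceeded Control in each of the 4 sets, by log2 ratios of 0.18 to 0.45, but the Control library of Set 4 lay above 2 of the Notch3IC libraries. Its log2 fold change was 0.29 (SE 0.13, 95% interval -0.02 to 0.60, adjusted p = 0.298), and the adjusted p was 0.0751 with the set as a block. That value was 0.193, 0.333 and 0.236 without Sets 1, 3 and 4.

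Spry4, the least abundant of the 10, had 80, 49, 143 and 198 raw counts in Control and 206, 39, 216 and 226 in Notch3IC, from Set 1 to Set 4. The normalized values ran 79.3, 58.5, 137 and 157 for Control, then 230, 57.1, 199 and 191 for Notch3IC. The groups overlapped, with Set 2 low in both groups and Set 1 moving from a low Control value to the highest of all 8. The log2 ratios were 1.53 in Set 1, -0.03 in Set 2, 0.54 in Set 3 and 0.28 in Set 4. Counting intervals ran from 1.16 to 1.93 in Set 1 and from -0.68 to 0.60 in Set 2. Over all sets its log2 fold change was 0.65 (SE 0.46, 95% interval -0.39 to 1.69, adjusted p = 0.507), and 0.34 (adjusted p = 0.757) without Set 1.

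Spred2 was at 1404, 1146, 1508 and 1491 normalized counts in Control and at 1084, 828, 960 and 1054 in Notch3IC, from Set 1 to Set 4. All 4 Notch3IC libraries lay under the lowest Control library, that of Set 2, a separation that 3.75% of all genes tested showed in this direction. The means were 1387 ± 167 and 982 ± 115 (SD, n = 4 each). Its log2 fold change was -0.50 (SE 0.12, 95% interval -0.78 to -0.22, adjusted p = 0.0681), 0.708 times the Control level and within the fold-change limit. The log2 ratios were -0.37, -0.47, -0.65 and -0.50 in Sets 1 to 4, and the adjusted p was 0.0240 with the set as a block. It was 0.161 to 0.205 without any 1 of the 4 libraries of Sets 3 and 4, and 0.103 without Set 1 as a whole.

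Spred1, the relative of Spred2 with the higher level, had a log2 fold change close to 0. It ranged from 2603 to 2802 normalized counts in Control and from 2649 to 3153 in Notch3IC. The fitted log2 fold change was 0.09 (SE 0.09, 95% interval -0.11 to 0.29, adjusted p = 0.646), an interval that leaves room for differences of up to 1.22-fold. Log2 ratios were 0.28, -0.08, 0.00 and 0.15 in Sets 1 to 4. A test of Spred1 against Spred2 was not run.

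**Figure D2:**
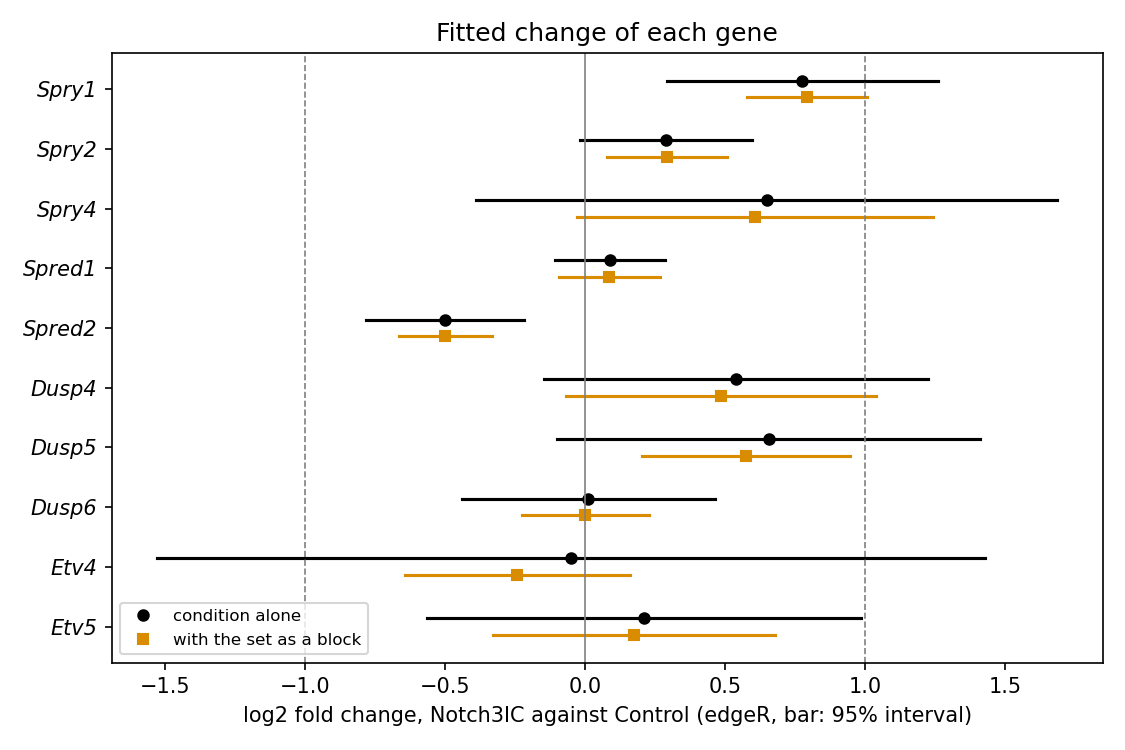
Log2 fold change of Notch3IC against Control (horizontal axis) of the 10 genes by edgeR, with points at the estimate and bars over its 95% interval, for the fit with condition alone (black) and with the set as a block (orange), and dashed lines at -1 and 1. With condition alone the intervals of Spry1 and Spred2 leave out 0, and with the block those of Dusp5 and Spry2 do so too.

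The log2 fold changes of the phosphatases ran from 0.01 to 0.66. Dusp5 was at 602, 435, 788 and 667 normalized counts in Control and at 1098, 460, 1489 and 875 in Notch3IC, in set order. It was higher in each set, yet the Notch3IC library of Set 2 lay under 3 of the Control libraries. The log2 ratios were 0.87, 0.08, 0.92 and 0.39, and the counting interval of Set 2, -0.14 to 0.30, included 0. Across sets the log2 fold change was 0.66 (SE 0.33, 95% interval -0.10 to 1.41, adjusted p = 0.341). With the set as a block it was 0.58 (adjusted p = 0.0595), and without the Notch3IC library of Set 2 the adjusted p was 0.0592. Without that of Set 3 the log2 fold change was 0.38 (adjusted p = 0.685). With the block the adjusted p was 0.204 without Set 1, 0.223 without Set 3 and 0.180 without Set 4. In GRCm38, 22.1% of the exon bases of Dusp5 lie over AC137853.2 on the opposite strand.

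Dusp4 had 886, 516, 567 and 736 normalized counts in Control and 946, 492, 1343 and 1145 in Notch3IC in Sets 1 to 4. The difference lay in Sets 3 and 4, with log2 ratios of 1.24 and 0.64, against 0.09 and -0.07 in Sets 1 and 2, whose counting intervals included 0. Dusp4 thus had a log2 fold change of 0.54 (SE 0.30, 95% interval -0.15 to 1.22, adjusted p = 0.389), and the adjusted p was 0.0664 without the Notch3IC library of Set 2. Leaving out Notch3IC of Set 3 gave 0.35 (adjusted p = 0.720), and leaving out Set 3 gave 0.27 (adjusted p = 0.928).

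Dusp6, the ERK phosphatase often used as a readout of the pathway, had 2110, 1566, 2078 and 2526 normalized counts in Control and 2543, 1426, 2216 and 2160 in Notch3IC in Sets 1 to 4. It was higher in Sets 1 and 3 and lower in Sets 2 and 4, with log2 ratios of 0.27, -0.14, 0.09 and -0.23. The direction thus differed between sets, and with library totals in place of TMM the ratio of Set 3 was 0.05. Its log2 fold change was 0.01 (SE 0.20, 95% interval -0.44 to 0.46, adjusted p = 0.985), and its sign depended on the scaling. The interval leaves room for changes of up to 1.38-fold upward and to 0.737 times the Control level downward.

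**Figure D3:**
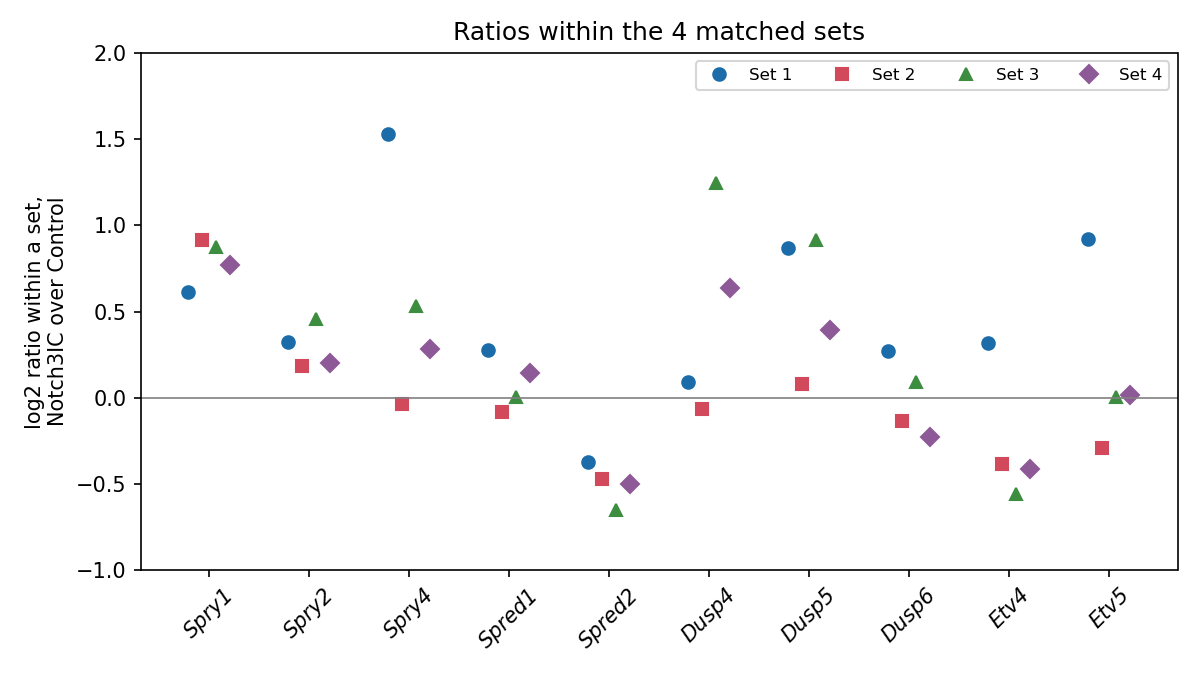
Log2 ratio of normalized counts, Notch3IC over Control, within each of the 4 sets (vertical axis) for the 10 genes, 1 point per set. Spry1, Spry2 and Dusp5 are above 0 and Spred2 below 0 in all 4 sets, and Set 2 has the lowest ratio of the 4 in Spry2, Spry4, Spred1, Dusp4, Dusp5 and Etv5.

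The ETS factors were split by Set 1. Etv4 had 663 normalized counts in the Control and 829 in the Notch3IC library of Set 1, against 143, 305 and 331 in the Control and 110, 207 and 248 in those with Notch3IC, for Sets 2 to 4. Of the 10 genes it was the only 1 for which both libraries of Set 1 lay above, or both below, the other 6. The estimate was a log2 fold change of -0.05 (SE 0.65, 95% interval -1.53 to 1.43, adjusted p = 0.980), and -0.24 (95% interval -0.64 to 0.16, adjusted p = 0.335) with the set as a block. Within the sets the log2 ratios were 0.32, -0.38, -0.56 and -0.41. Without Set 1 the log2 fold change was -0.46 (SE 0.41, adjusted p = 0.550, or SE 0.11 and adjusted p = 0.134 with the block).

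Etv5 had 167, 136, 268 and 247 normalized counts in Control and 315, 111, 269 and 249 in Notch3IC in Sets 1 to 4. Set 1 again differed from the rest, with a log2 ratio of 0.92 against -0.29, 0.01 and 0.02. For Etv5 the log2 fold change was 0.21 (SE 0.34, 95% interval -0.56 to 0.99, adjusted p = 0.805), and -0.04 (adjusted p = 0.963) without Set 1.

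Across the sets, the 10 genes had median log2 ratios of 0.32, -0.07, 0.27 and 0.17 in Sets 1 to 4, beside -0.01, 0.01, -0.01 and 0.00 over all genes tested. Set 2, the set with the lowest median, was also the one with the smallest Notch3 ratio, 3.51 on the log2 scale against 6.79, 7.01 and 7.10. With 4 sets, the part of the Notch3 level or of the lower depth of Set 2 in these ratios was not tested. Of the 10 genes, 3 were higher in 4 of 4 sets and 1 was lower, where 21% and 19.4% of all genes tested were. With the set as a block and the adjusted p alone, 3 of the 10 were higher (Spry1, Dusp5 and Spry2; 14.9% of all genes) and 1 was lower (Spred2; 12.1%).

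Levels between genes were compared per length of exon, in CPM per kb. In Control, Dusp6 was the highest at 28.3 ± 5.38 (SD, n = 4), followed by Spred1 at 17.0 ± 0.545 and Spred2 at 12.9 ± 1.55, and the libraries of these 3 did not overlap. Below them in mean, Dusp5 (10.8 ± 2.55), Dusp4 (10.6 ± 2.64), Spry2 (7.27 ± 0.956), Etv4 (4.98 ± 3.01) and Spry1 (4.60 ± 1.28) formed a run in which each overlapped its neighbour. The libraries of Spred2 also overlapped those of Dusp5. Etv5 at 2.13 ± 0.658 and Spry4 at 0.973 ± 0.420 came last, and the libraries of Etv5 overlapped neither those of Spry1 nor those of Spry4 but did overlap those of Etv4. In Notch3IC the order was Dusp6, Spred1, Dusp5, Dusp4, Spred2, Spry2, Spry1, Etv4, Etv5 and Spry4, and each overlapped its neighbour. Spred2 held rank 3 in Control and rank 5 in Notch3IC, at 9.11 ± 1.07, and overlapped the gene ranked next below it in both groups.

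**Figure D4:**
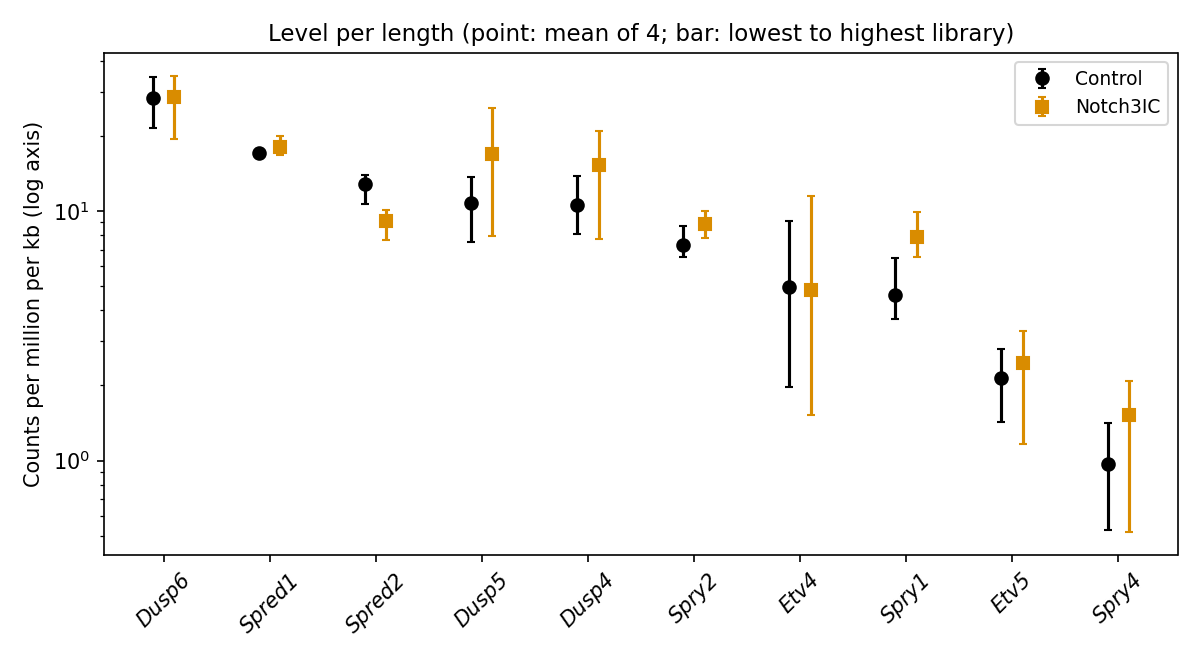
Level of the 10 genes in CPM per kb of exon (vertical log axis) in Control (black circles) and Notch3IC (orange squares), with points at the mean of 4 libraries and bars from the lowest to the highest library. Dusp6 is the highest and Spry4 the lowest in both groups, and the bars of Control and Notch3IC are apart in Spry1 and Spred2 alone.

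The genes most like Dusp6 and Spry4 over the 8 libraries were found from the root mean square difference of their log2 CPM, each centred on its own mean. For Dusp6 these were Zfp808 (0.07), Vps13a (0.09) and Fam111a (0.10), where Dusp6 itself varied by 0.28 around its mean. For Spry4 they were Camk2n1 (0.25), Tmem71 (0.28) and Etv5 (0.30), where Spry4 varied by 0.75. Etv5 was thus both a member of the 10-gene list and among the 3 tested genes closest to Spry4.

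Other genes of the pathway gave context, from 5 lists with 114 genes, 100 of them tested. By both thresholds 4 (4%) were higher and 1 (1%) lower, near the 3.4% and 0.74% of all genes, with a median log2 fold change of 0.00. Of 9 tested relatives of the 10 genes, 2 passed both thresholds as higher. These were Dusp1, a nuclear phosphatase of stress kinases and ERK, and Etv1, the remaining factor of the Etv4 family. Dusp1 had 337, 268, 411 and 478 counts in Control and 1183, 285, 892 and 961 in Notch3IC in Sets 1 to 4, with a log2 fold change of 1.24 (SE 0.29, adjusted p = 0.0623). Etv1 had 5, 0, 2 and 0 counts in Control and 13, 7, 14 and 38 in Notch3IC (adjusted p = 0.0719), too few in Control for a fold change to be given. Etv1 passed the expression filter through the Notch3IC libraries alone, so its call, counted among the 4 above, is not read as a change. With at least 10 counts required in every library, 1 relative was called. By that filter 3 of the listed pathway genes were called higher, and 301 of all genes. Neither Dusp1 nor Etv1 passed with Notch3IC of Set 1 left out, with Control of Set 2 left out, without any 1 of the 4 libraries of Sets 3 and 4, or at an adjusted p under 0.05. With Control of Set 1 left out, 1 gene of the list was called.

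Of 13 other inhibitors of the pathway, all tested, none passed both thresholds in edgeR with condition alone, the expression filter and all 8 libraries. At an unadjusted p under 0.05, 4 were higher and 0 lower (11.8% and 6.65% of all genes). The 2 most abundant were Pea15a, which holds ERK in the cytoplasm (0.57, adjusted p = 0.179), and Pebp1, the RAF inhibitor (0.42, adjusted p = 0.153). Il17rd, the FGF antagonist also known as Sef, was picked after its values were seen. It had 101, 167, 181 and 236 counts in Control and 258, 139, 1429 and 1060 in Notch3IC. This was a difference of 2.04 on the log2 scale (SE 0.56, adjusted p = 0.102). Il17rd passed both thresholds with the set as a block (adjusted p = 0.0654), with DESeq2 (0.00403) and without the expression filter (0.0886). A gene of this list also passed without the Notch3IC library of Set 1, without that of Set 2 and without Set 2.

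Of 26 tested genes of the kinase cascade none passed both thresholds with all 8 libraries, in edgeR with condition alone or with the block or in DESeq2, and 1 did in edgeR without the Notch3IC library of Set 2, and 1 with the block and without Set 2. With condition alone, 1 was higher and 2 lower at an unadjusted p under 0.05 (11.8% and 6.65% of all genes), and the median log2 fold change was -0.02. The most abundant was Ptpn11, the phosphatase SHP2, with a log2 fold change of 0.07 (adjusted p = 0.883). Of 24 tested ERK-response genes and their factors none passed in edgeR with condition alone, the expression filter and all 8 libraries. At an unadjusted p under 0.05, 3 were higher and 2 lower, beside the same shares of all genes, and the median log2 fold change was -0.14. Without the Notch3IC library of Set 2, 3 passed, and without Set 2 there were 2, where the calls over all genes also went up, to 702 higher and 305 lower and to 670 and 229. The most abundant of these were Junb (-0.25, adjusted p = 0.745) and Fosl2 (-0.16, adjusted p = 0.677), both AP-1 subunits. DESeq2 called 2 of the list higher, Jun and Egr2, which are named after their values were seen. Jun (1.22, adjusted p = 0.0227 with DESeq2) also passed both thresholds with the set as a block (1.12, adjusted p = 0.0473). Egr2, an immediate early factor, had 1, 2, 0 and 0 counts in Control and 33, 8, 6 and 8 in Notch3IC (adjusted p = 0.00732 with DESeq2, or 0.063 with edgeR and no expression filter). With so few counts in Control, as for Etv1, its call rests on the Notch3IC libraries alone and is not read as a change.

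Of the 5 lists, the receptors and ligands held the largest log2 fold change. Of 28 tested, 2 receptors rose, Pdgfrb and Egfr, and 1 ligand fell, Fgf5, where 3.4% of all genes rose and 0.74% fell. With the set as a block, 4 of this list were called higher and 5 lower (5.19% and 2.53% of all genes). Pdgfrb, the receptor for PDGF-B, had 95, 172, 35 and 37 counts in Control and 3104, 1255, 8427 and 11261 in Notch3IC in Sets 1 to 4, with a log2 fold change of 5.99 (SE 0.70, adjusted p = 0.0169). Egfr, the EGF receptor, had 2480, 2612, 3053 and 3510 counts in Control and 4759, 2058, 10217 and 9193 in Notch3IC (1.18, SE 0.30, adjusted p = 0.0802), with the Notch3IC library of Set 2 within the Control range after normalization. Fgf5, an FGF ligand, had 866, 809, 898 and 1127 counts in Control and 156, 416, 162 and 259 in Notch3IC (-1.65, SE 0.41, adjusted p = 0.0749). Of the 114 listed genes, DESeq2, whose own filter admits genes that edgeR did not test, called 9 higher and 3 lower, and with the set as a block 8 and 5 were called. Over all genes DESeq2 called 707 and 192 and the block 645 and 315, against 423 and 92 in edgeR with condition alone. None of the 100 was called by edgeR without Set 3, where 9 were higher and 3 lower at an unadjusted p under 0.05, or without Set 4, where 8 and 1 were. Over all genes tested, 1 was called higher and 0 lower without Set 3, with 806 and 295 unadjusted, and 0 and 0 without Set 4, with 742 and 269. Among the listed genes, leaving out the Notch3IC library of Set 1 gave 2 higher and 0 lower (381 and 61 over all genes). That of Set 2 gave 9 and 4 (702 and 305 over all genes). Without the Control library of Set 2 the number higher was 1 (442 over all genes), and without that of Set 1 the number lower was 2 (146). Without any 1 of the 4 libraries of Sets 3 and 4 there were 1 higher and 0 lower, where 75 to 201 and 8 to 29 of all genes were.

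**Figure D5:**
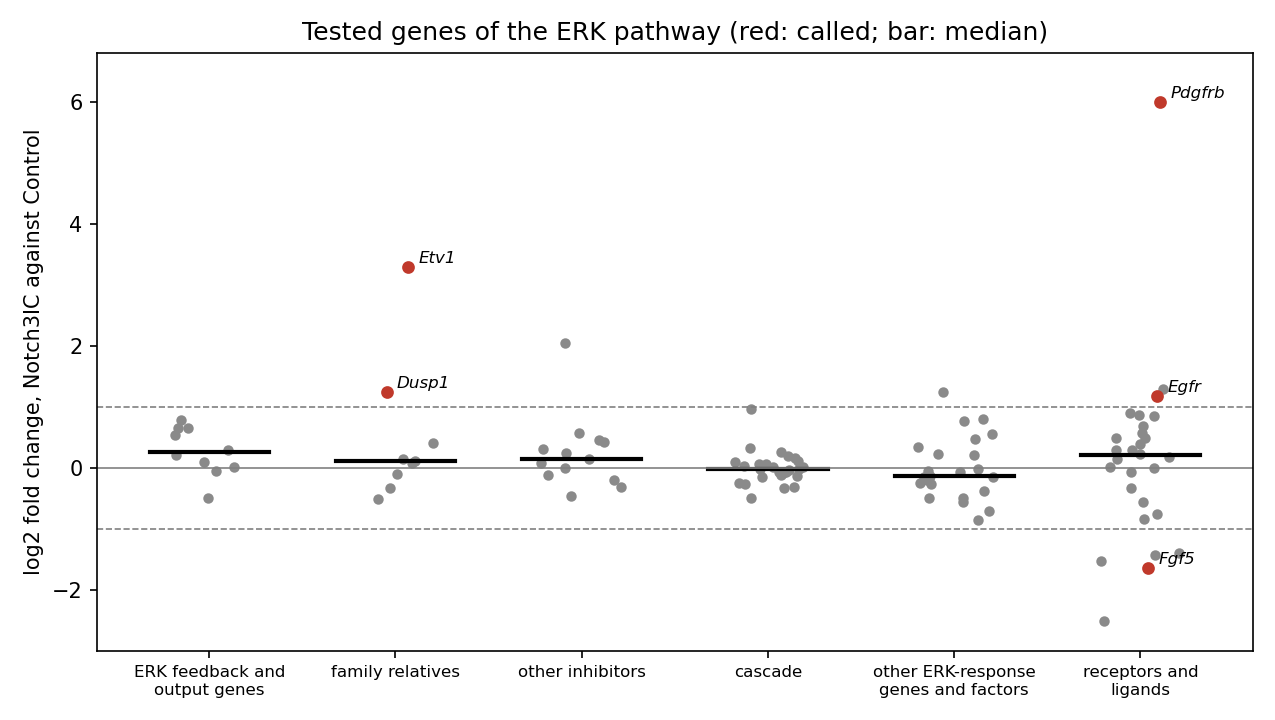
Log2 fold change of Notch3IC against Control (vertical axis) of each tested gene of the 10-gene list and of the 5 pathway lists, with black bars at the median of a list, red points for genes past both thresholds and dashed lines at -1 and 1. The fitted value of Etv1, with at most 5 counts in Control, depends on the prior count of the fit. The 5 red points are Etv1, Dusp1, Pdgfrb, Egfr and Fgf5, and no gene of the 10-gene list lies outside the dashed lines.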

How the data were processed

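For each of the 8 libraries the authors deposited 1 table of raw read counts by gene symbol (23284 symbols, 17359 with counts). They name TopHat, Cufflinks, DESeq and mm9 in the submitters' notes. Annotation and strandedness are not given in the sources used here. Positions, exon lengths and overlaps are from GENCODE M21 on GRCm38, and promoter windows from RefSeq (GRCm38.p6). No coordinates of the counting build were used.

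Notch3IC was compared with Control by edgeR 4.0.16 in R 4.3.3 (TMM, filterByExpr, robust quasi-likelihood F test, condition as the only term), with Benjamini-Hochberg adjustment over the 12430 genes tested. Thresholds were an adjusted p under 0.1 and a log2 fold change of 1. Standard errors and 95% intervals come from that fit. Within a set, log2 ratios took a pseudocount of 0.5 and have no test, with 1 library per arm, and their exact Clopper-Pearson intervals cover counting error only. The biological coefficient of variation was 26.3%, and 14.1% with the set as a block.

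The set numbers pair the libraries, by the study's description of matched sets. Each library was centred on the mean of its group, and the correlation over genes between the 2 libraries of Sets 1, 2, 3 and 4 was 0.80, 0.40, 0.57 and 0.41. Between libraries of different sets it was -0.50 to 0.37.

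The 10 genes and all lists were chosen with earlier results of these data known. Named besides the 10 are Notch3, Hey1, Heyl and Nrarp, the genes past both thresholds in each list (6 of smallest p if more), the 2 most abundant tested genes of a list with fewer than 2 of these, and the 3 genes most like Dusp6 and Spry4. Of the genes that this rule names, 1 is not reported here. Il17rd, Jun, Egr2, Upk3b, Krt7, Emr1 and Cd3e were named after their values were seen. Hras and Adgre1 were matched under the older symbols Hras1 and Emr1. Alternatives were DESeq2 1.42.0, RLE, upper-quartile and library-total scaling, other count filters, the set as a block, an adjusted p under 0.05, no fold limit, pseudocounts of 2 and 5, and leaving out each library or set. Promoters, derived values and figures used Python 3.11.15, NumPy 2.4.6, pandas 2.3.3 and Matplotlib 3.10.9.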

Additional observations from a re-analysis of the deposited data

Results flagged for a closer look

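Among the 10 genes, the 4 label-check genes and the library totals, each examined in both conditions, 1 of 30 groups held a library far from the others: Notch3 in the Control library of Set 3. Its value was 70.8 normalized counts, where Control of Sets 1, 2 and 4 lay between 38.7 and 42.0. The gap took a share of 0.896 of the range of the 4 libraries, above the critical value of Dixon's test for 4 values. Chance flags about 1 in 20 groups, or 1.5 of 30.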

How the results depend on the processing

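The 10 genes gave 0 calls in either direction under every alternative that keeps the fold limit, and without the limit 1 was higher and 1 lower. The set as a block changed the side of the adjusted p threshold for Dusp5 (0.0595) and Spry2 (0.0751) and for no other of the 10 genes. With each library left out in turn, the genes called among all tested were 75 to 702 higher and 8 to 305 lower, and among the listed pathway genes 1 to 9 higher and 0 to 4 lower. Among all genes tested, the numbers called higher and lower were 707 and 192 with DESeq2, 645 and 315 with the set as a block, 670 and 229 without Set 2, 1 and 0 without Set 3, and 0 and 0 without Set 4. With the block they were 46 and 23 without Set 1, 904 and 426 without Set 2, 59 and 22 without Set 3, and 129 and 30 without Set 4. Those called lower were 48 at an adjusted p under 0.05, 210 without a fold limit and 151 without Set 1. For the listed pathway genes the numbers were 9 and 3 with DESeq2, 8 and 5 with the block, 1 and 0 at an adjusted p under 0.05, 0 and 0 without Set 3 or Set 4, and with the block 9 and 6 without Set 2 and 0 and 0 without Set 1, Set 3 or Set 4. They were 7 higher without the expression filter, 2 higher without Set 1 and 3 lower without Set 2.

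The adjusted p of Spry1 was 0.140 without Set 2, 0.497 without Set 3, 0.451 without Set 4 and 0.115 with the block and without Set 3. That of Spred2 was 0.451 without Set 3 and 0.460 without Set 4, and with the block 0.110, 0.123 and 0.105 without Sets 1, 3 and 4. With one library left out, the log2 fold change was 0.66 to 0.98 for Spry1 and -0.58 to -0.43 for Spred2. With the block and without Set 2 the adjusted p was 0.0648 for Dusp4, 0.00821 for Dusp5, 0.0462 for Spry2 and 0.0697 for Spry4. With the block and without Set 1, 3 or 4 none of these 4 passed, at 0.180 to 0.223 for Dusp5, 0.193 to 0.333 for Spry2, 0.235 to 0.466 for Dusp4 and 0.290 to 0.362 for Spry4. The log2 fold change of Dusp6 was -0.010 with DESeq2, -0.0071 with RLE, -0.033 with library totals, -0.092 without Set 1, -0.017 without Set 3, and with the block -0.094 and -0.031 without these sets, with a range of -0.10 to 0.15 with one library left out. That of Etv4 was 0.062 without Set 3 and 0.045 without Set 4, with a range of -0.92 to 0.42, and that of Etv5 was -0.044 without Set 1 and -0.081 with the block and without Set 1. The cause of these changes was not tested. For the ratios within sets, 40 of 40 stayed within their counting intervals with pseudocounts of 2 and 5 and with library totals. With library totals the sign turned for 3 ratios near 0, Spred1 in Set 3 (-0.042) and Etv5 in Sets 3 (-0.037) and 4 (-0.019).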
